A study of Mus musculus with 8 samples.

Results

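The cardiac and endodermal GATA factors Gata4, Gata5 and Gata6 and their cofactors Zfpm1 and Zfpm2 were examined by RNA sequencing in whole mouse embryos at embryonic day 9.5. The 5 genes were taken by symbol from a table of 41709 gene symbols, of which 13596 reached 1 TPM (a transcript level corrected for gene length and scaled to the same total in every library) in at least 4 embryos and were tested. They were chosen with their difference between genotypes in view, because Gata4 and Gata5 were higher in every mutant, so their levels are given as a description with no test. The embryos came from crosses of Smo K399A heterozygotes: 4 were Smo+/+ (WT) and 4 were homozygous for K399A (mutant), a substitution in Smoothened, the membrane protein that relays the Hedgehog signal. The allele was inherited, so every cell of a mutant embryo carries it, and each library was made from 1 embryo. Several litters were used and the labels do not tie embryos to litters. Smo itself averaged 140.2 ± 6.29 TPM (SD, n = 4) across WT embryos and 140.7 ± 12.5 TPM across mutants, which does not check the genotype, since a substitution need not alter the transcript level.

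GATA factors are zinc finger proteins that bind DNA at the letters GATA. Gata4, Gata5 and Gata6 act together in the forming heart, where Gata4 works with Nkx2-5 and Tbx5 to switch on genes of the contracting muscle, and in endoderm, including the visceral endoderm that lines the yolk sac. Zfpm1 and Zfpm2, also called Fog1 and Fog2 (friend of GATA), do not read the GATA site themselves but attach to the amino-terminal zinc finger of a GATA factor and recruit repressor complexes. Zfpm1 is best known as the partner of Gata1 in red cells and megakaryocytes, and Zfpm2 as the partner of Gata4 in heart and gonad.

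Promoter sequence was taken for 2 of the 5 genes, Gata5 and Zfpm1, from the RefSeq table of build GRCm38.p6. Promoters of the other genes were not examined, whether or not the table held them. That of Gata5 is shown, since Gata5 had the smallest relative spread among WT embryos and was, like Gata4, higher in every mutant. The stretch is chr2:180334700-180334929 on the minus strand and ends at the base before the annotated start of the gene. Capitals mark the GC box GGGCGG, bound by Sp1-type factors, and the E-box CACGTG, each searched on both strands.
Gata5: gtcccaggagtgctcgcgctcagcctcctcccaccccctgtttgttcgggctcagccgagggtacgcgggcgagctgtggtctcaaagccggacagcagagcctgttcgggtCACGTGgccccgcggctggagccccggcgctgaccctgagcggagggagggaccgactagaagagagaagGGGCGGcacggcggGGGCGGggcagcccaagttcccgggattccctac
G and C made up 70.4% of this stretch, which held 2 GC boxes and 1 E-box, with no overlap between them. Windows of the same length from all 32851 promoters in the table held a GC box in 29.8% and the E-box in 5.3% of cases. GATA sites were searched on both strands spelled AGATAA or, with its last letter changed, AGATAG, or, with the first letter changed, TGATAA or, with both changed, TGATAG, and the GLI site, bound by the transcription factors at the end of the Hedgehog pathway, as GACCACCCA. The stretch held none of these letters, against 25.4% of windows with a GATA site and 0.2% with the GLI site.

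The genes lie on 5 chromosomes of build GRCm38. In the GENCODE M21 annotation Gata4 spans chromosome 14, 63198922 to 63271692, on the minus strand, and Gata5 spans chromosome 2, 180325133 to 180334699, also on the minus strand. Gata6 spans chromosome 18, 11052064 to 11085635, Zfpm1 chromosome 8, 122282141 to 122337251, and Zfpm2 chromosome 15, 40655035 to 41104592, all on the plus strand. All are protein-coding. Exons of Gata5 share 258 bases with the antisense gene Gata5os, and exons of Gata6 share 93 bases with 1010001N08Rik, a gene on the opposite strand. Strandedness of the counting is not given in the sources used here, so reads from those stretches cannot be assigned. Gata5os was listed at 0 to 0.0983 TPM in the 8 embryos and Gata6os at 1.30 to 3.31 TPM, with its highest value in mutant 1. Whether Gata6os and 1010001N08Rik are names of the same gene was not checked.

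The libraries of mutants 3 and 4 stood apart from the other 6 in small nucleolar RNA host genes and mt-Nd6, with a summed level of 317.2 to 777.3 TPM over all mutants and 663.0 to 792.2 TPM in WT, and a list mean of 4.65 and 4.75 in these 2 against 5.77 to 6.12 elsewhere. Without them the log2 fold change of mutant over WT, on the scale of log2(TPM + 1), was 1.32 for Gata4, 0.91 for Gata5, 0.76 for Gata6, 0.35 for Zfpm1 and 0.49 for Zfpm2. The GATA trio and Zfpm2 were thus further apart between genotypes without these libraries and Zfpm1 less far than the values with all 8 embryos given below.

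All 5 genes were higher in each of the 4 mutants than in any WT embryo. Groups that did not overlap in this direction made up 3.63% of the 13596 genes tested, and in the opposite direction 3.82%; since the genes were picked from this comparison, nothing is read from their count. On the scale of log2(TPM + 1) the difference was largest for Gata4, followed by Gata5 and Gata6. Zfpm1 and Zfpm2 had no fixed order: their log2 fold changes were 0.49 and 0.37 on that scale but 0.35 and 0.49 without mutants 3 and 4, and their ratios of means were 1.40 and 1.64. In bulk tissue a higher level can come from more cells of a type or from more RNA per cell, and the 2 cannot be told apart.

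Gata4, which drives heart muscle genes and is needed for the folding of the heart tube, was at 8.53, 14.9, 10.2 and 10.9 TPM in WT 1 to 4 and at 37.2, 22.4, 23.7 and 26.3 TPM in mutants 1 to 4. Mutant 1 was highest, and the lowest mutant still had 1.5 times the level of the highest WT embryo. The mutant mean of 27.4 ± 6.71 TPM (SD, n = 4) was 2.46 times the WT mean of 11.1 ± 2.71 TPM, and 2.17 times without mutant 1. The log2 fold change of TPM + 1 was 1.22 ± 0.19 (SE; limma). Because Gata4 and the genes described with it were picked from this comparison, their SE values describe spread and test nothing. Each value rested on 625 to 2712 reads.

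Gata5, which acts in endocardium and endoderm, was at 8.42, 9.07, 8.60 and 9.29 TPM in WT 1 to 4, the tightest of the 5 genes relative to its mean, with a coefficient of variation of 4.56%. In mutants 1 to 4 it was at 21.5, 14.2, 14.8 and 18.4 TPM, a coefficient of variation of 19.6%. Mutants 1 and 4 were the high ones, and the lowest mutant stood at 1.53 times the highest WT embryo. The log2 fold change was 0.87 ± 0.13 (SE).

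Gata6, the family member most tied to primitive and visceral endoderm and also active in the heart, was at 11.1, 9.41, 9.71 and 10.7 TPM in WT 1 to 4. It was at 23.2, 13.9, 15.5 and 15.4 TPM in mutants 1 to 4. Mutant 1 stood well above the others, and the ratio of means of 1.66 was 1.46 without it. The log2 fold change was 0.66 ± 0.14 (SE).

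Zfpm1 was the most abundant of the 5 genes in every embryo. It was at 25.5, 32.7, 39.7 and 42.2 TPM in WT 1 to 4 and at 46.0, 42.4, 56.1 and 50.9 TPM in mutants 1 to 4. The groups only just separate: WT 4 rested on 2822 reads, with an exact Poisson 95% interval of 40.7 to 43.8 TPM, and mutant 2 on 2704 reads, with an interval of 40.9 to 44.1 TPM. These intervals cover counting error only, and they overlap almost fully. With median-ratio scaling, mutant 2 was at 40.5 and WT 4 at 41.9, so the groups overlapped. The log2 fold change was 0.49 ± 0.15 (SE). Unlike the 3 GATA factors, Zfpm1 was highest in mutant 3 and not in mutant 1.

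Zfpm2 was the least abundant, with 2.7% of tested genes below it in mean level. It was at 0.855, 0.960, 0.935 and 0.907 TPM in WT 1 to 4 and at 2.09, 1.35, 1.38 and 1.19 TPM in mutants 1 to 4. No WT embryo reached 1 TPM and every mutant did, so the gene passed the filter for testing only through the mutants. It rested on 153 to 373 reads per library, and counting error alone gives a 95% half-width of 10.3% to 16.2% of each value. The ratio of means was 1.64, and 1.43 without mutant 1. The log2 fold change of TPM + 1 was 0.37 ± 0.13 (SE), and 0.63 with a pseudocount of 0.1, since a pseudocount of 1 exceeds the WT level of this gene.

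**Figure D1:**
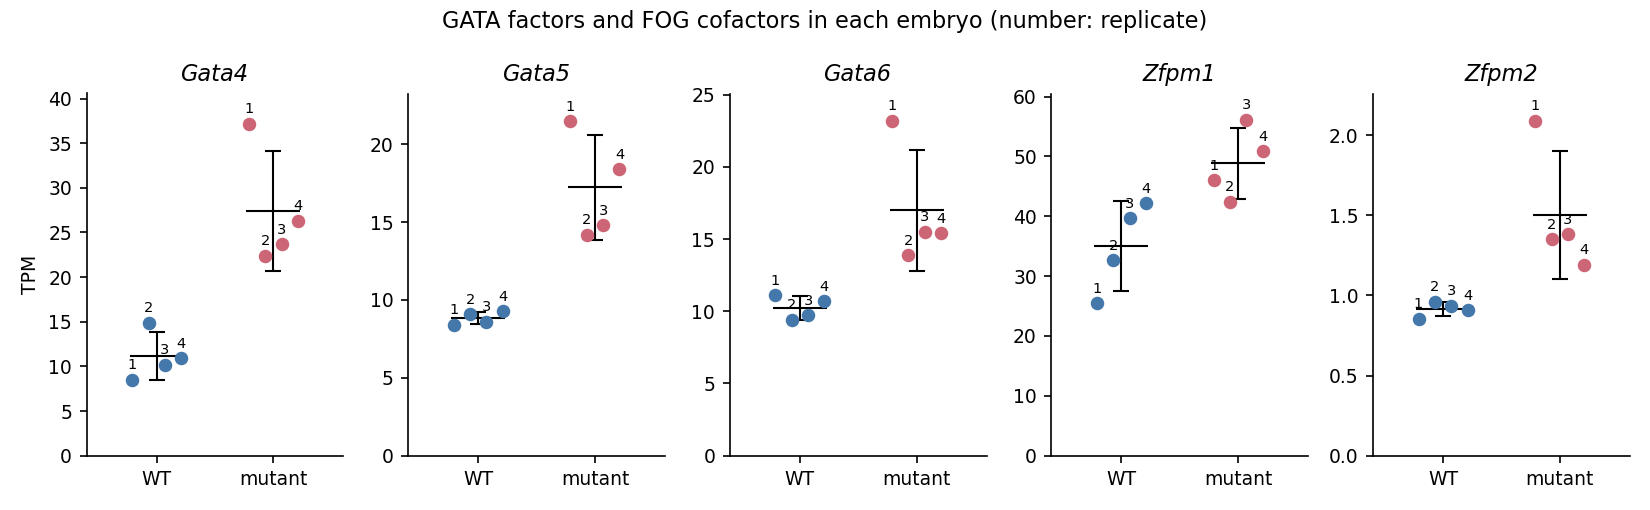
Level of each gene in TPM (vertical axis, from 0) in 4 WT embryos (blue) and 4 mutants (red); the number beside a point is the replicate, and the bars give the mean and SD. Every mutant lies above every WT embryo for all 5 genes, by the smallest margin for Zfpm1 (42.4 against 42.2 TPM), and mutant 1 is highest for all but Zfpm1.

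TPM is scaled by length, so levels can be compared between genes. Zfpm1 led and Zfpm2 came last in all 8 embryos. Between them the order was less fixed. Gata4 exceeded Gata5 in all 8 embryos, by as little as 1.01-fold in WT 1. Gata4 exceeded Gata6 in 3 of 4 WT embryos and in 4 of 4 mutants, and in WT the ratio of Gata4 to Gata6 ran from 0.769 in WT 1 to 1.58 in WT 2, so these neighbours did not differ beyond their spread there. Gata5 was below Gata6 in all 4 WT embryos and above it in 2 of 4 mutants.

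The make-up of the trio differed with genotype less than its total. The summed level of Gata4, Gata5 and Gata6 stood at 28.0, 33.4, 28.5 and 30.9 TPM in WT 1 to 4 and at 81.8, 50.4, 54.1 and 60.2 TPM in mutants 1 to 4. Gata4 made up 30.4% to 44.7% of it in WT and 43.8% to 45.4% in mutants. These ranges overlap because of WT 2, whose share of 44.7% lies inside the range of the mutants. Gata5 made up 27.2% to 30.2% in WT and 26.2% to 30.6% in mutants. Gata6 made up 28.2% to 39.5% in WT and 25.6% to 28.6% in mutants. For each TPM of the cofactor Zfpm2 there were 9.98 to 15.5 TPM of Gata4 in WT and 16.6 to 22.2 TPM in mutants.

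Over the 8 embryos, with the genotype means removed, the Pearson correlation of log2(TPM + 1), given as a description, was 0.79 between Gata5 and Gata6, 0.76 between Gata4 and Gata5, 0.82 between Gata6 and Zfpm2, and 0.50 between Gata4 and Gata6. With Zfpm1 the values were -0.14 to 0.13. The other values fell without mutant 1, the highest library for Gata4, Gata5, Gata6 and Zfpm2. They were then 0.26 between Gata5 and Gata6, 0.50 between Gata4 and Gata5, -0.60 between Gata6 and Zfpm2, and -0.49 between Gata4 and Gata6. Zfpm2 went from 0.71 to 0.24 with Gata4 and from 0.64 to -0.65 with Gata5. The values with Zfpm1 were -0.02 to 0.34 without mutant 1.

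The other tested genes most like each member were sought among named genes with a mean of at least 5 TPM, by Pearson correlation of log2(TPM + 1) over the 8 embryos. Since the genotypes do not overlap for the members, the genotype difference is part of these correlations. With the genotype means removed, the correlations of the genes named here were 0.87 to 0.97. They were not computed without mutant 1, so its part in them was not tested. The genes were picked for a high correlation over the same embryos, so both sets of values are a description. For Gata4 they were Sh3glb1 (r = 0.981), Pgrmc2 (0.979) and Myh6 (0.977). Myh6, the atrial heavy chain of myosin and a classic Gata4 target, was at 47.6 to 75.8 TPM in WT and 114.5 to 192.3 TPM in mutants, whereas Sh3glb1 differed little in size, at 39.1 to 43.3 and 44.9 to 51.2 TPM. For Gata5 they were Cd164 (0.992), Flnc (0.985) and Tgfb2 (0.984). Tgfb2, a TGF-beta ligand, was at 7.46 to 10.3 TPM in WT and 14.0 to 22.3 TPM in mutants, and Flnc, a filamin of striated muscle, at 26.8 to 29.0 and 34.8 to 51.9 TPM. For Gata6 they were Igf2r (0.989), Lrrn4 (0.985) and Myrf (0.984). Lrrn4 was at 13.3 to 15.3 TPM in WT and 18.6 to 32.6 TPM in mutants. For Zfpm1 they were Foxo3 (0.965), Foxh1 (0.948) and Tgm2 (0.943), and for Zfpm2 Lamp1 (0.982), Tfpi (0.976) and Mafk (0.976).

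Across all 13596 genes, limma called 0 higher (0.0%) and 0 lower (0.0%) in mutants at a Benjamini-Hochberg adjusted p under 0.05; the lowest adjusted p of any gene was 0.203. At an unadjusted p under 0.05 there were 754 genes higher (5.55%) and 1088 lower (8.0%). The median log2 fold change of all genes was -0.045, and 37.7% of them were above 0. Of all genes tested, 3.63% were higher in every mutant than in every WT embryo and 3.82% were lower. The lists below are read against these figures, and none of their genes passed the test.

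Partner transcription factors of Gata4 in the heart were mostly higher. Of 12 tested, 10 were higher, 4 of them in every mutant, and 5 had an unadjusted p under 0.05 in that direction, with a median log2 fold change of 0.14. Nkx2-5, which binds Gata4 directly, was at 9.48 to 15.8 TPM in WT and 17.2 to 34.7 TPM in mutants (log2 fold change 0.84 ± 0.21, SE; limma adjusted p = 0.281). Tbx5, the T-box factor that binds Gata4 in the chambers and septum, was at 3.59 to 6.09 and 6.92 to 10.8 TPM (0.74 ± 0.18). Tbx20 was at 5.77 to 7.92 and 9.46 to 19.7 TPM, and Mef2c, a MADS-box factor of muscle, at 3.78 to 4.68 and 5.06 to 8.39 TPM. Adjusted p was 0.281 for each of the 4. Isl1, a factor of the second heart field, was not among the higher ones, at 11.9 to 20.6 TPM in WT and 8.06 to 15.1 TPM in mutants; it is named after its values were seen. Without mutants 3 and 4 the median was 0.30, and 7 were higher in every mutant left. Leaving embryos out can only keep or raise such a count. The 7 are therefore not set against the 4 above or against the share of all genes.

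Heart genes that GATA factors are known to activate were mostly higher, the natriuretic peptides apart. Of 11 tested, 9 were higher, 4 of them in every mutant and with an unadjusted p under 0.05, with a median log2 fold change of 0.42. Without mutant 1 that median was 0.22, and again 9 were higher. Actc1, the cardiac actin, was at 517.0 to 780.2 TPM in WT and 829.7 to 1685.2 TPM in mutants (log2 fold change 0.78 ± 0.20, SE; limma adjusted p = 0.281). Slc8a1, the sodium-calcium exchanger, was at 5.95 to 11.2 and 13.0 to 25.1 TPM, and Adora1, an adenosine receptor, at 0.568 to 1.03 and 1.46 to 2.21 TPM. For Myh6, given above, the log2 fold change was 1.07 ± 0.19 and the adjusted p 0.203. The 2 genes that were not higher on average encode the natriuretic peptides, textbook targets of Gata4, and are named after their values were seen. Nppa was at 75.9, 97.1, 63.9 and 71.1 TPM in WT 1 to 4 and at 120.6, 59.2, 64.8 and 25.1 TPM in mutants 1 to 4, so that mutant 1 was above and mutants 2 and 4 below all WT embryos. Nppb was at 29.9, 19.9, 20.9 and 17.1 TPM in WT and at 31.4, 12.7, 12.7 and 8.27 TPM in mutants, above all WT embryos in mutant 1 and below them in the other 3.

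BMP signals induce the cardiac GATA factors in mesoderm. Of 13 BMP ligands, receptors and Smads tested, 10 were higher, 3 of them in every mutant and with an unadjusted p under 0.05, with a median log2 fold change of 0.08. Bmp2, a ligand of the heart-forming region and endoderm, was at 7.31, 8.29, 9.35 and 8.87 TPM in WT 1 to 4 and at 19.3, 13.4, 15.8 and 13.7 TPM in mutants 1 to 4 (log2 fold change 0.80 ± 0.12, SE; limma adjusted p = 0.203). Bmp5 was at 10.1 to 12.0 and 12.3 to 21.6 TPM, and the receptor gene Acvr1 at 13.2 to 15.0 and 15.6 to 16.2 TPM. Bmpr1b was at 4.80 to 6.92 TPM in WT and 4.05 to 5.17 TPM in mutants. In place of 3 genes, 2 were higher in every mutant with median-ratio scaling and 5 without WT 2. Over all genes tested, the number higher in every mutant rose in both settings. Leaving an embryo out can only keep or raise such a count, so nothing is read from the 5 without WT 2.

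The repressor complexes that FOG proteins recruit, NuRD and CtBP, were not higher as a list. Of 13 genes tested, 4 were higher and 9 lower, none was higher in every mutant and 3 were lower in every mutant, with a median log2 fold change of -0.04, near that of all genes. With median-ratio scaling 7 of the 13 were higher. Mta2, a scaffold subunit of NuRD, was at 180.7 to 195.1 TPM in WT and 162.1 to 177.4 TPM in mutants (log2 fold change -0.16 ± 0.05, SE; limma adjusted p = 0.281). Ctbp2, a corepressor bound by FOG proteins, was at 72.4 to 77.5 and 64.3 to 71.4 TPM. Chd3, a remodelling ATPase, was at 62.1 to 76.8 and 42.5 to 70.5 TPM, and Rbbp7 was the one with the smallest p in the upward direction, at 409.1 to 453.7 and 451.2 to 524.3 TPM.

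Other genes with a GATA-type zinc finger differed little. Of 7 tested, 6 were higher and 1 was higher in every mutant, with a median log2 fold change of 0.10. Gata2, of blood stem cells and endothelium, was at 3.42 to 4.25 TPM in WT and 3.90 to 5.11 TPM in mutants, and Gata3, of ear, kidney and sympathetic neurons, at 6.76 to 8.09 and 7.30 to 9.93 TPM. Trps1, a GATA-type repressor, was at 6.07 to 7.77 and 4.64 to 7.64 TPM. Gatad1 was the gene higher in every mutant, at 62.8 to 67.6 and 68.0 to 72.1 TPM (limma adjusted p = 0.362), and with median-ratio scaling it overlapped too.

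**Figure D2:**
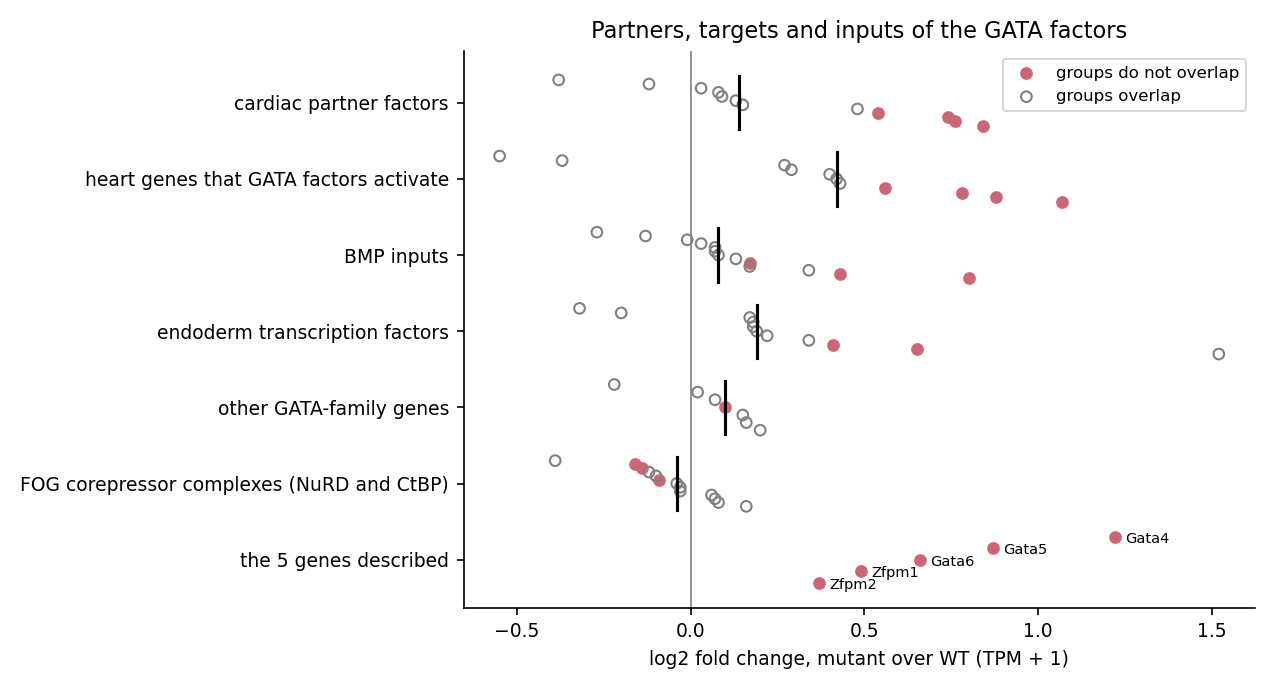
Log2 fold change of mutant over WT on the scale of TPM + 1 (horizontal axis) for each tested gene of 6 lists and for the 5 genes described; filled red points are genes whose groups do not overlap, open points overlap, and black lines are list medians. The highest point is Hnf4a of the endoderm list, at 1.52. Gata4 at 1.22 and Gata5 at 0.87 lie towards the upper end, beside Myh6 at 1.07, Slc8a1 at 0.88 and Nkx2-5 at 0.84. The FOG corepressor genes sit around 0.

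The GATA trio is expressed in several cell types of the embryo, and the marker lists of those cells were read in the same libraries. The heart muscle list shares Myh6, Actc1, Tnnc1, Tnni3, Myl3 and Nppa with the heart genes that GATA factors activate, so these lists are not separate readings. Heart muscle markers were higher in 16 of 18 genes, 7 of them in every mutant, with a median log2 fold change of 0.47, and of 0.24 without mutant 1. Their summed level was 1530.4 to 2223.4 TPM in WT and 2251.5 to 4605.7 TPM in mutants, and no marker was at 0. The mean log2(TPM + 1) over the list stood at 5.22, 5.46, 4.90 and 5.40 for WT 1 to 4 and at 6.37, 5.41, 5.68 and 5.28 for mutants 1 to 4, so mutants 2 and 4 lay between WT 1 and WT 2. With this mean as a covariate, in a fit chosen after seeing the data, the log2 fold change was 0.97 for Gata4, 0.74 for Gata5, 0.45 for Gata6 and 0.22 for Zfpm2, the last a reduction of over 1.5 times. The part of heart muscle content in the GATA values was not tested.

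Yolk sac endoderm expresses Gata4 and Gata6, and its markers were higher in mutants on average. All 18 markers had a higher mean in mutants, and all 18 had an unadjusted p under 0.05, with a median log2 fold change of 2.44. None was higher in every mutant, which rested on few libraries: 15 were higher in every mutant without WT 3, 18 without mutants 3 and 4, 6 without mutant 4, 3 without mutant 3, 1 without WT 2 and 2 with median-ratio scaling. Their summed level stood at 22.0, 50.9, 294.6 and 27.1 TPM in WT 1 to 4 and at 1530.0, 940.9, 262.5 and 174.4 TPM in mutants 1 to 4, and Fga was at 0 in WT 1. WT 3 therefore held more yolk sac transcript than mutants 3 and 4. With the mean over this list as a covariate, the log2 fold changes were 1.07 for Gata4, 0.83 for Gata5, 0.54 for Gata6 and 0.49 for Zfpm1, and that of Zfpm2 was 0.18, against 0.37 without the covariate. The part of yolk sac content in these values was not tested.

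**Figure D3:**
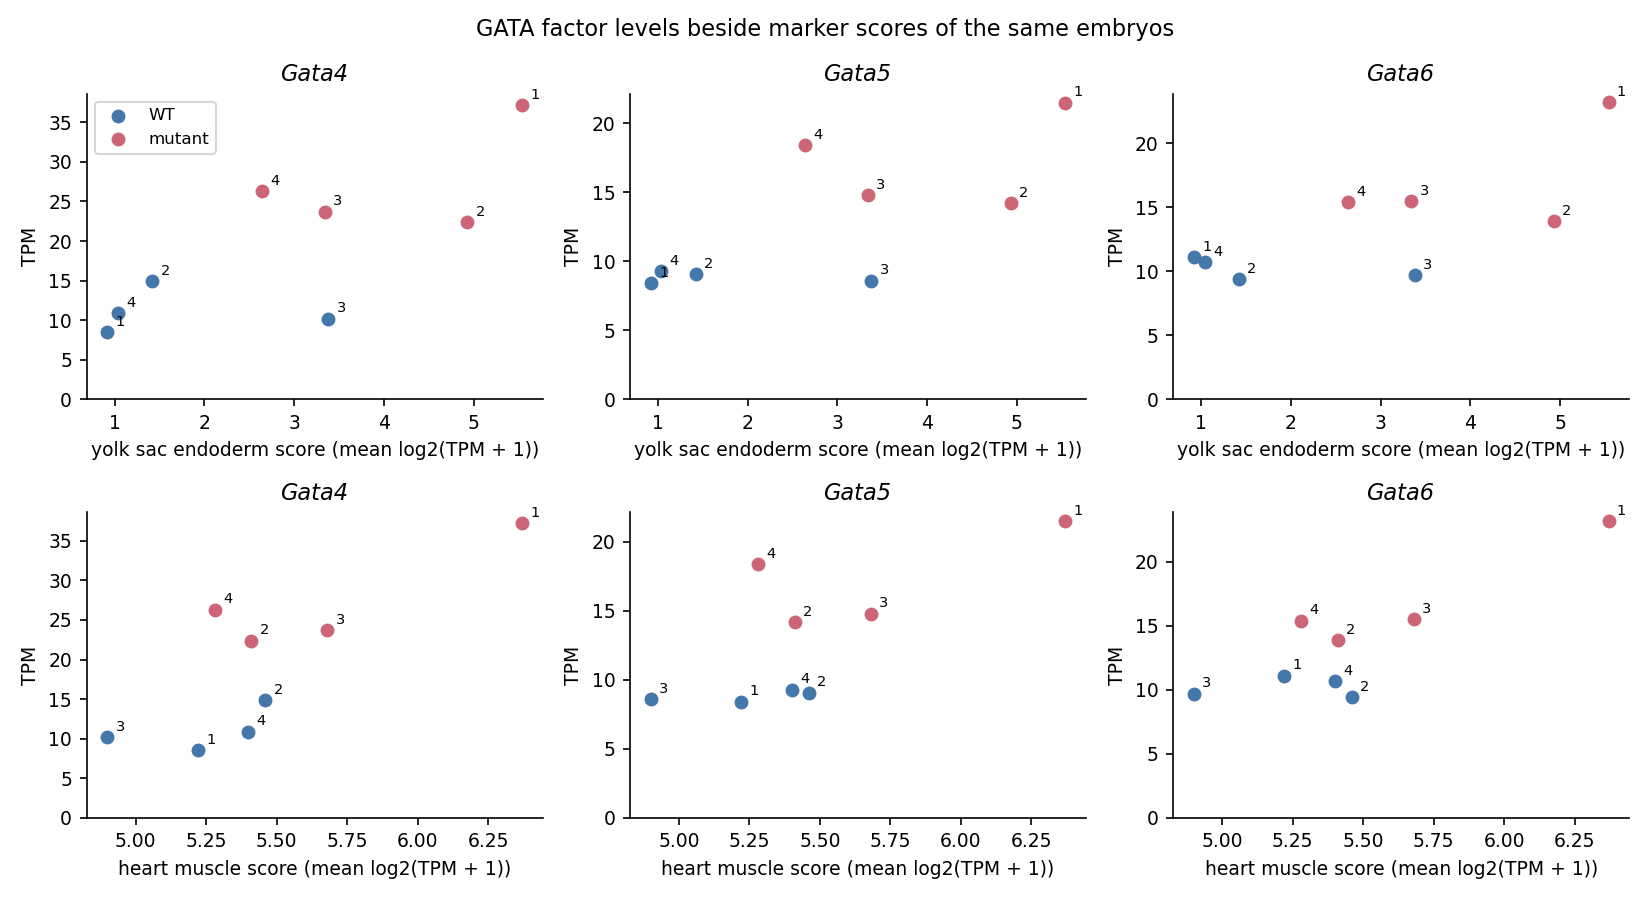
Gata4, Gata5 and Gata6 in TPM (vertical axes, from 0) against the mean log2(TPM + 1) of yolk sac endoderm markers (upper row) and heart muscle markers (lower row) in WT (blue) and mutant (red) embryos, numbered by replicate. The yolk sac score of WT 3, at 3.38, lies among those of the mutants, the heart scores of mutants 2 and 4, at 5.41 and 5.28, lie among those of WT embryos, and mutant 1 is highest on both scores and for all 3 genes.

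Endoderm transcription factors gave a mixed picture. Of 11 tested, 9 were higher, 2 of them in every mutant, with a median log2 fold change of 0.19. Hnf4a, which stands high in liver and visceral endoderm, was at 0.110, 0.468, 1.47 and 0.206 TPM in WT 1 to 4 and at 7.80, 5.05, 1.73 and 1.25 TPM in mutants 1 to 4 (log2 fold change 1.52 ± 0.44, SE; limma adjusted p = 0.281), the same order of embryos within each genotype as the summed yolk sac markers. Foxa3 was at 0.366 to 0.846 TPM in WT and 1.11 to 2.05 TPM in mutants, and Hhex, of the liver bud and endothelium, at 2.42 to 2.61 and 2.94 to 4.87 TPM. Sox7 was at 5.84 to 6.94 and 6.80 to 10.7 TPM.

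Endocardium and endothelium, where Gata5 is active, and the epicardium and septum transversum, where Gata4 and Gata6 are, were read likewise. Of 8 endocardial markers all 8 were higher, 5 of them in every mutant, with a summed level of 75.2 to 85.7 TPM in WT and 95.1 to 122.7 TPM in mutants and a median log2 fold change of 0.33. Npr3 was at 5.25 to 6.73 and 7.10 to 9.48 TPM, and Tek, the angiopoietin receptor, at 16.1 to 19.2 and 22.4 to 38.6 TPM (log2 fold change 0.58 ± 0.16, SE; limma adjusted p = 0.281). Of 10 endothelial markers 9 were higher and 7 higher in every mutant, with sums of 215.4 to 255.7 and 238.3 to 324.3 TPM. Tek and Tie1 are in both the endocardial and the endothelial list. Of 9 epicardial and septum transversum markers 7 were higher, 1 of them in every mutant, with sums of 89.5 to 147.7 and 112.1 to 145.2 TPM. Tbx18 was at 3.83 to 7.14 and 6.68 to 12.8 TPM, and Upk1b at 1.96 to 4.77 and 4.94 to 10.8 TPM. The median of that list was 0.29, and 0.15 without mutant 1. Of its genes, 3 in place of 1 were higher in every mutant without mutant 4, and 2 without WT 4 or without mutant 2. Leaving an embryo out can only keep or raise such a count, so nothing is read from these rises. No marker of these 3 lists was at 0, and the part of these cells in the GATA values was not tested.

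Zfpm1 was set beside red cells and megakaryocytes, its best-known sites. Gata1, its partner there, was at 5.16, 10.8, 16.7 and 19.1 TPM in WT 1 to 4, the same order as Zfpm1 in those embryos. In mutants 1 to 4 Gata1 was at 11.1, 15.9, 19.9 and 8.01 TPM, and there the order differed, with mutant 4 lowest for Gata1 and second highest for Zfpm1. The ratio of Zfpm1 to Gata1 ran from 2.21 to 4.94 in WT and from 2.66 to 6.35 in mutants, with the highest value in mutant 4. Of 13 tested red cell markers 13 had a positive fold change, none with an unadjusted p under 0.05, with a median of 0.15, but 2 did without WT 1, with a median of -0.20, and 4 without mutant 3, with a median of -0.03. Summed red cell markers were at 14393.7 to 49524.6 TPM in WT and 20544.0 to 52185.0 TPM in mutants, and no marker was at 0. With their mean as a covariate, in a fit chosen after seeing the data, the log2 fold change of Zfpm1 was 0.43, against 0.49. Of 3 tested megakaryocyte markers all 3 were lower, with sums over 8 markers of 10.6 to 27.4 TPM in WT and 6.83 to 17.6 TPM in mutants, and Pf4 was at 5.02 to 14.3 and 1.31 to 10.1 TPM.

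**Figure D4:**
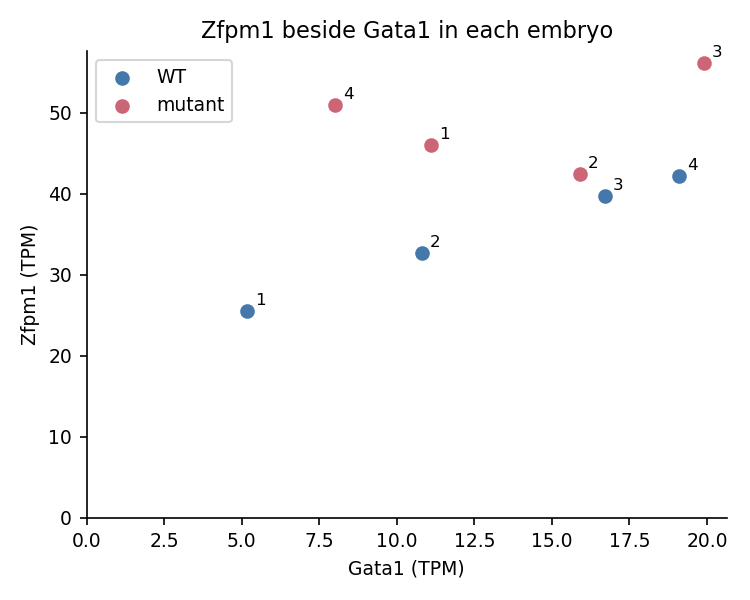
Zfpm1 against Gata1, both in TPM from 0, in WT (blue) and mutant (red) embryos, numbered by replicate. The 4 WT embryos keep one order for both genes, from WT 1 at 5.16 TPM of Gata1 and 25.5 TPM of Zfpm1 to WT 4 at 19.1 and 42.2 TPM, and mutant 4 pairs 8.01 TPM of Gata1 with 50.9 TPM of Zfpm1.

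Gonad, the other site of Gata4 and Zfpm2, gave little signal at this stage. Nr5a1, which defines the early gonad and adrenal, was under 1 TPM in all embryos. Emx2, of the urogenital ridge and forebrain, was at 12.5 to 16.5 TPM in WT and 6.40 to 10.7 TPM in mutants (log2 fold change -0.65 ± 0.15, SE; limma adjusted p = 0.281), opposite to Gata4, and 2 of the 6 tested genes of the list were higher, or 4 without WT 2 or without mutant 3. Trophoblast and decidua markers were higher in 4 of 4 tested genes, at sums of 7.03 to 25.5 TPM in WT and 15.1 to 324.0 TPM in mutants, with Prl8a2 at 291.3 TPM in mutant 2, the mutant with the lowest Gata4, Gata5 and Gata6. In that list Tpbpa, Gcm1 and Psg16 were each at 0 in at least 1 embryo.

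**Figure D5:**
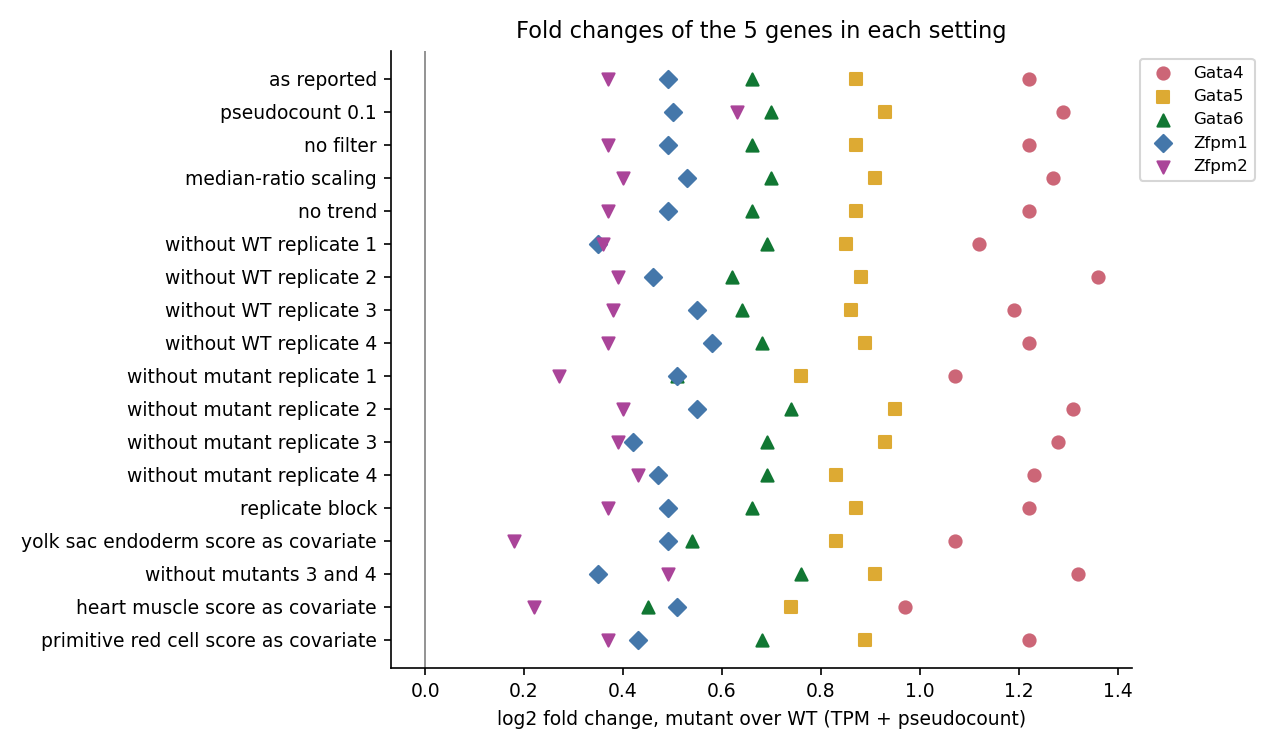
Log2 fold change of mutant over WT (horizontal axis) for the 5 genes under each way of computing it (rows), 1 symbol per gene. Over the 17 alternatives values lie between 0.97 and 1.36 for Gata4 and between 0.18 and 0.63 for Zfpm2.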

How the data were processed

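Each of 8 libraries was made from 1 whole embryo, 4 per genotype, with a TruSeq RNA kit, per the labels' protocols. The authors deposited 1 table of TPM per gene symbol, made on GRCm38 (mm10) per the submitters' processing notes; aligner, counter, annotation release and strandedness were not given in the sources used here. Columns were matched to samples by title, with 0 left over. TPM values times GENCODE M21 merged exon lengths were whole multiples of 1 step in each library (97.5% to 97.72% of values of 1 to 500 reads lay within 0.02 of a whole number), which gave 59.05 to 60.42 M reads (M, mega) per library over matched genes and the reads behind each member. Zfpm2 rested on the fewest reads.

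Genes with at least 1 TPM in at least 4 embryos were compared with limma 3.58.1 (R 4.3.3) on log2(TPM + 1), with trend and genotype only, two-sided, with Benjamini-Hochberg adjustment over all genes; no count model was used. The fit was tested on simulated data. Named genes were the 5 members, up to 4 genes of smallest p in each list and the 3 genes most correlated with each member. Members and lists were chosen with earlier results of these data known. Alternatives were another pseudocount, no filter, median-ratio scaling, no trend, each embryo left out, a replicate block, marker scores as covariates, and leaving out mutants 3 and 4. One gene called in a single alternative is not reported here.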

Additional observations from a re-analysis of the deposited data

Results flagged for a closer look

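In 8 of 138 groups of 4 values examined, 1 embryo lay far from the other 3 of its genotype, where chance alone gives about 1 in 20. None of these was a level of Gata4, Gata5, Gata6, Zfpm1 or Zfpm2. Mutant 1 was far above the other mutants for Tbx20, a partner of Gata4, at 19.7 TPM, and for Upk1b at 10.8 TPM. WT 3 was far above the other WT embryos for yolk sac markers, with Ttr at 37.4 TPM, Rbp4 at 41.3 TPM, Apob at 8.13 TPM and Spink1 at 12.7 TPM. WT 4 was highest in its genotype for Ttn, at 1.32 TPM. Mutant 2 was far above the other mutants for Prl8a2, at 291.3 TPM.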

How the results depend on the processing

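The 5 genes were picked as higher in mutants, so a positive log2 fold change in each of 17 alternatives is no sign of stability. Of these alternatives only median-ratio scaling could make the groups overlap, and under it those of Zfpm1 did. With 1 embryo left out the log2 fold change was 1.07 to 1.36 for Gata4, 0.76 to 0.95 for Gata5, 0.51 to 0.74 for Gata6, 0.35 to 0.58 for Zfpm1 and 0.27 to 0.43 for Zfpm2. Zfpm2 moved by more than the spread between embryos with a pseudocount of 0.1 (0.63), by the construction of that scale, and with the yolk sac covariate (0.18), where the cause was not tested; the heart muscle covariate gave 0.22. Genes called lower numbered 0 to 1 with 1 embryo left out (Gm28230 without mutant 2) and 1 with the red cell covariate, and 3 were called higher without mutants 3 and 4 (Gsn, Prap1 and Gpx3); the genes named here were named after their values were seen, and the cause was not tested. Embryos that share a number across genotypes were not alike once genotype means were taken out (correlations of -0.0618, 0.0398, -0.194 and -0.245). The numbers thus showed no sign of pairing, but so few correlations cannot exclude it. The replicate block called 0 genes. Each number holds 1 WT embryo and 1 mutant, so the block cannot change the log2 fold changes of 1.22, 0.87, 0.66, 0.49 and 0.37. Leaving out the trend or the filter cannot change them either. The 4 embryos per genotype limit all 5 genes, and counting error adds most for Zfpm2.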
